A study of Mus musculus with 2 samples.

Results

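Nuclear genes for the subunits of respiratory complexes II, III, IV and V and for cytochrome c were chosen by symbol, and no measured value enters the rule. The symbols were Sdha to Sdhd, Cyc1, Cycs, and all that begin with Uqcr, with Atp5, or with Cox followed by a digit of 4 to 8. This took in 50 of 43346 genes: 4 of complex II, 9 of complex III, the cytochrome c gene Cycs, 19 of complex IV and 17 of complex V. The rule passed over 6 further symbols marked as pseudogenes, all at 0 counts in both libraries. Of the 50 entries, 49 are annotated as protein coding, and Cox6c2 as a processed pseudogene.

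Polyadenylated RNA was sequenced from both fragment ends in G1E-ER4, an immortalised mouse erythroid line. The parent line lacks a working Gata1 gene, and G1E-ER4 carries GATA1 fused to the hormone-binding domain of the estrogen receptor, and the hormone makes the factor active. There was 1 group, exposed for 24 h to 10 nM 17beta-estradiol. It held 2 libraries, labelled biological replicates 1 and 2, that share a biosample record, and the spread between them may therefore be technical. No untreated cells were analysed here, so no level can be read as a response to estradiol. Gene counts summed to 70451042 in replicate 1 and 13841487 in replicate 2, so that replicate 1 was 5.09-fold deeper. For a gene with no counts, the limit is 3 counts, or 0.0426 CPM (counts scaled to library size) in replicate 1 and 0.217 CPM in replicate 2, for counting error only. Of the erythroid markers, Gata1 checks nothing here because the line carries an introduced form of it. The other 6 markers all reached 1 TPM (a level corrected for transcript length and scaled to the library) in both libraries, and summed to 2299 TPM in replicate 1 and 3612 TPM in replicate 2. None of 4 myeloid, 2 lymphoid or 5 muscle markers reached 1 TPM in both libraries, and 2 of 3 megakaryocyte markers did. In bulk RNA, fewer cells of a type and less RNA per cell cannot be told apart.

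The respiratory chain sits in the inner mitochondrial membrane. Succinate dehydrogenase, complex II, passes electrons from succinate to ubiquinone, the bc1 complex, complex III, hands them to cytochrome c, and cytochrome c oxidase, complex IV, gives them to oxygen. Complexes III and IV pump protons, and ATP synthase, complex V, makes ATP as protons flow back through it. All subunits of complex II are encoded in the nucleus, whereas complexes III, IV and V also hold subunits encoded in mitochondrial DNA. Several complex IV subunits come in a general form and in a form known from heart and muscle, lung or testis. Red cells lose their mitochondria at the end of their maturation, while their precursors still need them for heme synthesis.

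Promoter windows from RefSeq on GRCm38.p6, of 250 bases before and 50 after a gene's start, were listed for 35 of the 50 genes, in 38 windows. The 250 bases upstream of the start are shown for Cox6a1, the member with the highest level, and for the general and tissue forms of subunits 6b and 7a, whose order is described further on. Capitals mark matches, on either strand, to letters bound by NRF1 (GCGCANGC) or ETS-family factors such as GABP (CCGGAAG), by YY1 (AAGATGGC) or by GATA factors (AGATAA).
Cox6a1 (chr5:115348959-115349208, minus strand): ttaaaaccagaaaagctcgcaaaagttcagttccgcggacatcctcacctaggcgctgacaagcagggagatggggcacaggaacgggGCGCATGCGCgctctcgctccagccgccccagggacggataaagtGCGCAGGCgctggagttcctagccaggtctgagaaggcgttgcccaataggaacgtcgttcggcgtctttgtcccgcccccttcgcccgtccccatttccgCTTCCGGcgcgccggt
Cox6b2 (chr7:4753095-4753344, minus strand): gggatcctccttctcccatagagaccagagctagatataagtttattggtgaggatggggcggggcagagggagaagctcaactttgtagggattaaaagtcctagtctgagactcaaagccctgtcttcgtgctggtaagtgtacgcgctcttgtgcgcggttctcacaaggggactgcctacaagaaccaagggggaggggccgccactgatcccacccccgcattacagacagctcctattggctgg
Cox6b1 (chr7:30626115-30626364, minus strand): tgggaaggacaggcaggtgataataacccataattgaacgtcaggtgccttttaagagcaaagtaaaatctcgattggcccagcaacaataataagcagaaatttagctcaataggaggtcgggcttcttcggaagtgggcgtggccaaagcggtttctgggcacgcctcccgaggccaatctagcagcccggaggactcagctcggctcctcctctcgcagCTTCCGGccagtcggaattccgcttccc
Cox7a1 (chr7:30183921-30184170, plus strand): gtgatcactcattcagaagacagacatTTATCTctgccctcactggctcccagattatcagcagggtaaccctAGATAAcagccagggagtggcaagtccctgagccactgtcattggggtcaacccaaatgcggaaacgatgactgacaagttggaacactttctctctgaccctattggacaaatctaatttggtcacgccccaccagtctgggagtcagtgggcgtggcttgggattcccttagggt
Cox7a2 (chr9:79759854-79760103, minus strand): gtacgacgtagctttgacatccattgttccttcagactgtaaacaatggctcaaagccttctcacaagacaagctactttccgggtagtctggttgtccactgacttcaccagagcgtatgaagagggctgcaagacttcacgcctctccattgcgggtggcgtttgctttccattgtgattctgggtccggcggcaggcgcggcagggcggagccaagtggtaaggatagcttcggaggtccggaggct
The window of Cox6a1 held 3 matches to the NRF1 letters, the first 2 of which overlap, and 1 to the ETS letters. The Cox6b1 window held 1 match to the ETS letters, and the Cox7a1 window held 2 to the GATA letters. No match to these letters was found in the windows of Cox6b2 and Cox7a2. Over all members, the NRF1 letters were in 15 of 38 windows (39.5%), against 9.95% of all 32851 windows of this length. The ETS letters were in 12 member windows (31.6%), against 8.86% of all windows. The YY1 letters were in 2 member windows (5.26%), those of Atp5j and Atp5j2, against 2.75% of all. The GATA letters were in 4 member windows (10.5%), those of Atp5g1, Atp5g3, Cox7a1 and Cox7c, against 11.2% of all windows. A match is a description of the letters, not a bound site.

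Of the 50 members, 41 reached 1 TPM in both libraries, whereas 17.2% of all genes and 33.1% of protein-coding genes did. The median over all 50 was 40.7 TPM as a mean of both libraries, and 62.1 TPM over the 41. Summed over all members, the level was 14206 TPM in replicate 1 and 15652 TPM in replicate 2 (14929 ± 1023, SD, n = 2), which is 1.42% of all TPM in replicate 1 and 1.57% in replicate 2. The total was uneven among genes: Cox6a1 alone gave 23.0% of it in replicate 1 and 44.5% in replicate 2. The rank order of the members that reached 1 TPM was similar in both libraries, with a Spearman coefficient of 0.85 over 41 genes, which share their library and gene models. No p-value is given, since 2 libraries of 1 group allow no comparison of conditions; flipping signs exactly over 2 values, two-sided, cannot give a p below 0.5.

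**Figure D1:**
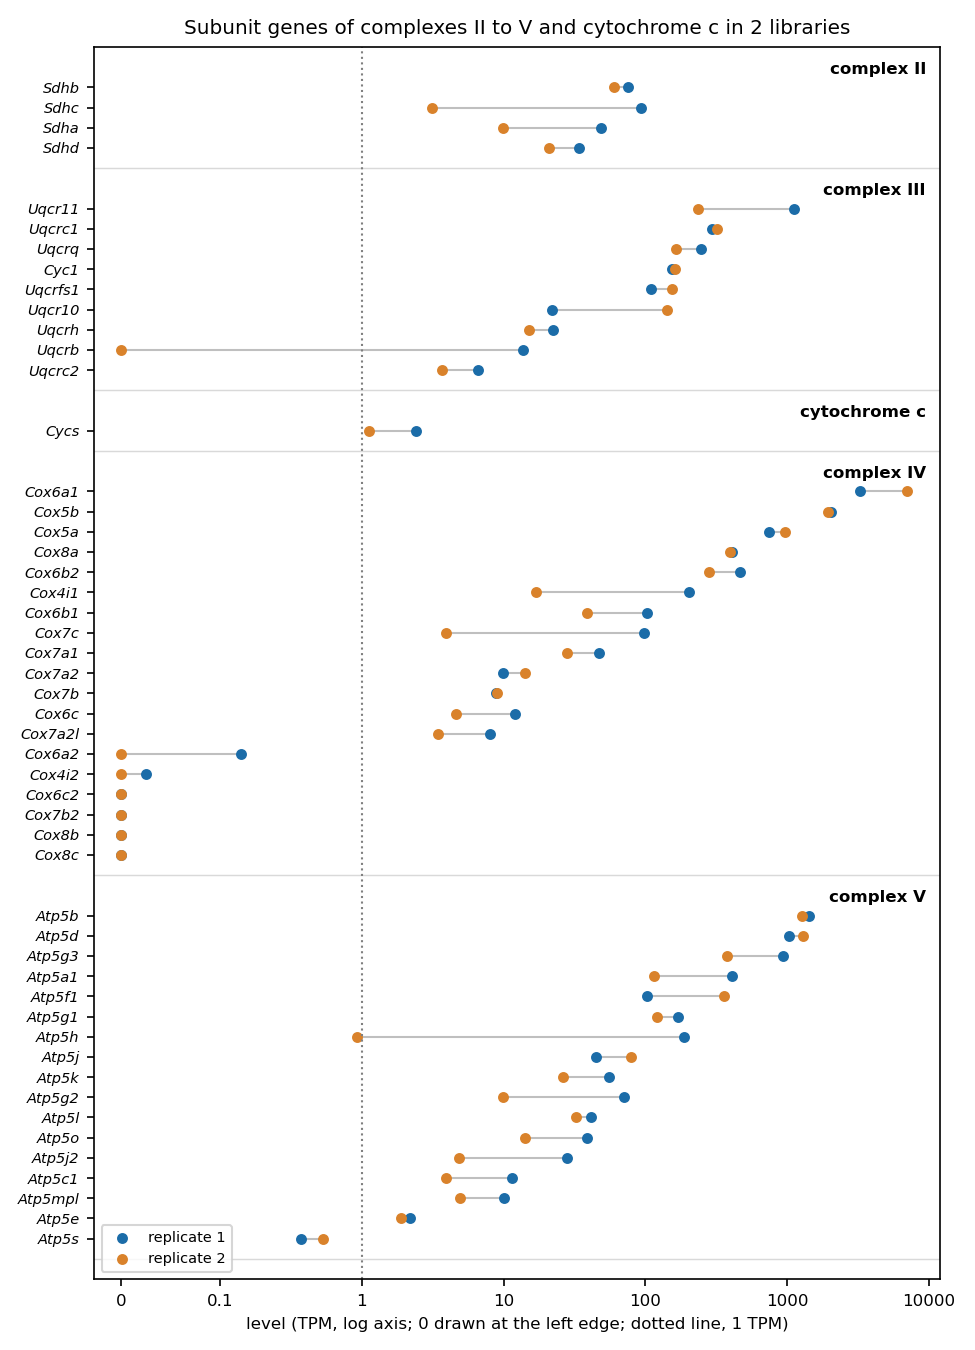
Level of each of the 50 members (rows, by complex and mean level) in TPM on a log axis, with blue points for replicate 1, orange points for replicate 2 and a grey line joining them. Levels within complexes III, IV and V spread over more than 2 powers of 10 in at least 1 library, and Uqcrb and Atp5h lie far apart between the libraries.

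All 4 genes of complex II were above 1 TPM in both libraries, with a summed level of 252 TPM in replicate 1 and 94.5 TPM in replicate 2. Sdhb, the iron-sulfur subunit, was at 75.35 TPM in replicate 1 and 60.43 TPM in replicate 2 (67.9 ± 10.6, SD, n = 2). Sdha, the flavoprotein that oxidises succinate, had 48.87 TPM in replicate 1 and 9.91 in replicate 2. Most of the Sdha level per length came from Sdha-202, a 438-base transcript annotated as a retained intron. The transcripts annotated as protein coding gave 4.24 TPM in replicate 1 and 2.94 TPM in replicate 2. In counts, Sdha-202 had 878 in replicate 1 and 24 in replicate 2. The coding Sdha-201, of 2900 bases, had 804 in replicate 1 and 91 in replicate 2, where it held most of the counts. Scaled counts of Sdha, which take no account of length, were 2.18-fold higher in replicate 1.

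The membrane anchors of complex II differed in how well their values repeated. Sdhd had 34.27 TPM in replicate 1 against 21.03 TPM in replicate 2. Sdhc had 93.19 TPM, from 4317 counts, in replicate 1 and 3.14 TPM, from 26 counts, in replicate 2. Sdhc was thus the highest gene of the complex in replicate 1 and its lowest in replicate 2. The highest and the lowest gene were 2.72-fold apart in replicate 1 and 19.2-fold apart in replicate 2.

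Complex III genes summed to 1992 TPM in replicate 1 and 1195 TPM in replicate 2, and 8 of 9 reached 1 TPM in both. The catalytic subunits encoded in the nucleus, Cyc1 and Uqcrfs1, repeated within 2-fold. Cyc1, the cytochrome c1 heme protein, was at 154.84 TPM in replicate 1 and 161.39 TPM in replicate 2 (158 ± 4.63, SD, n = 2). Uqcrfs1, the Rieske iron-sulfur protein, had 109.65 TPM in replicate 1 and 153.2 in replicate 2. Uqcrc1 and Uqcrc2 encode the paired core proteins, yet their levels lay far apart. Uqcrc1 had 294.94 TPM in replicate 1 against 318.32 TPM in replicate 2 (307 ± 16.5, SD, n = 2). Uqcrc2 was the lowest of the 8, with 6.61 TPM in replicate 1 and 3.69 TPM in replicate 2.

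The small subunits of complex III were less steady. Uqcr11 had the highest mean of the complex, with 1122.77 TPM in replicate 1 and 235.71 TPM in replicate 2. Uqcr10 lay the other way, with 21.81 TPM in replicate 1 and 143.05 TPM in replicate 2. Uqcrb had 13.63 TPM, from 360 counts, in replicate 1 and 0 counts in replicate 2. Uqcrq, with 245.19 TPM in replicate 1 and 164.45 TPM in replicate 2, and the hinge protein gene Uqcrh, with 22.36 TPM in replicate 1 and 15.18 TPM in replicate 2, lay closer together.

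Cycs, the somatic cytochrome c that carries electrons between complexes III and IV, was at 2.40 TPM in replicate 1 and 1.12 TPM in replicate 2, below every complex III gene that reached 1 TPM in both libraries. Its counts were 493 in replicate 1 and 6 in replicate 2. In replicate 1 all of them were assigned to Cycs-202, a protein-coding transcript of 3123 bases, and in replicate 2 all went to Cycs-201, a 607-base transcript annotated as a retained intron. The level per length of Cycs therefore rests on a different transcript in each library. Cyct, the testis form of cytochrome c, had 0 counts in both.

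Complex IV held the gene with the highest level and the highest sum. Its genes summed to 7407 TPM in replicate 1 and 10645 TPM in replicate 2, of which Cox6a1 gave 44.1% in replicate 1 and 65.4% in replicate 2. Cox6a1, the general or liver form of subunit 6a, lies on chromosome 5 from 115345642 to 115348981 on the minus strand (mm10), and had 3266.81 TPM in replicate 1 and 6959.74 in replicate 2. Cox5b, a subunit on the matrix side, had 2033.05 TPM in replicate 1 against 1927.06 TPM in replicate 2 (1980 ± 74.9, SD, n = 2). Cox5a, also on the matrix side, was at 741.42 TPM in replicate 1 and 963.75 TPM in replicate 2. All 3 exceeded every gene of complex II in both libraries. Without Cox6a1, complex IV summed to 4140 TPM in replicate 1 and 3685 TPM in replicate 2. Complex V, from which no gene was left out, lay above this at 4553 TPM (replicate 1) and, narrowly, 3717 TPM (replicate 2). Transcripts annotated as protein coding gave the opposite order. For replicate 1 they came to 3879 TPM in complex IV without Cox6a1, against 2064 TPM in complex V. The same sums for replicate 2 were 3570 TPM against 1893 TPM. By the median over all entries, as a mean of both libraries, complex III was highest at 131 TPM, followed by complex V at 41.0 TPM, complex II at 38.8 TPM and complex IV, which takes in 4 entries at 0 counts, at 12.1 TPM. Over the members that reached 1 TPM in both libraries, the median was 145 TPM for complex III, 71.1 TPM for complex IV, 41.0 TPM for complex V and 38.8 TPM for complex II.

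Of the 19 complex IV entries, 13 reached 1 TPM in both libraries and 4 had 0 counts in both, namely Cox7b2, Cox8b, Cox8c and the pseudogene Cox6c2. Cox4i2 and Cox6a2 had 1 and 5 counts in replicate 1 and none in replicate 2. Among the 13, the lowest was Cox7a2l, a relative of subunit 7a that takes part in joining complexes III and IV, with 8.06 TPM in replicate 1 and 3.45 TPM in replicate 2. From this gene to Cox6a1 the span was 405-fold in replicate 1 and 2017-fold in replicate 2. Cox7c, a small membrane subunit, had 97.33 TPM from 2511 counts in replicate 1 and 3.91 TPM from 16 counts in replicate 2. Cox6c had 12.05 TPM in replicate 1 and 4.62 in replicate 2, and Cox7b had 8.90 TPM in replicate 1 against 9.0 TPM in replicate 2. Both were led by a protein-coding transcript in replicate 1 and by a retained-intron transcript in replicate 2. Coding transcripts gave 11.03 TPM of Cox6c in replicate 1 and 0.50 TPM in replicate 2. For Cox7b they gave 6.64 TPM in replicate 1 and 3.04 TPM in replicate 2. Scaled counts of Cox6c, which take no account of length, were 1.99-fold higher in replicate 2, unlike its TPM.

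Genes for alternative forms of a subunit, mostly a general and a tissue form, were set side by side in 11 pairs, as the log2 ratio of TPM with 0.1 added to each. In 7 of the 11 pairs the first-named gene was higher in both libraries, and in the other 4 it was lower in both. From protein-coding transcripts alone the number was 6, since Cycs, like Cyct, had none in replicate 2. Cox4i1, the general subunit 4, was at 204.1 TPM in replicate 1 and 16.86 TPM in replicate 2, with at most 1 count for the lung form Cox4i2. Cox8a had 11115 counts and 410.05 TPM in replicate 1, and 1842 counts and 396.8 TPM in replicate 2, with no count for the muscle form Cox8b or the testis form Cox8c. The muscle form Cox6a2 had 0.14 TPM in replicate 1 and 0 in replicate 2.

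Subunit 6b showed the other order. Cox6b2, known as the testis form, had 464.63 TPM in replicate 1 and 278.59 in replicate 2, from 12443 counts in replicate 1 and 1283 in replicate 2. Cox6b1, the general form, had 103.29 TPM in replicate 1 against 38.86 TPM in replicate 2, from 2515 counts in replicate 1 and 163 in replicate 2. Cox6b2 was 4.50-fold above Cox6b1 in replicate 1 and 7.17-fold above it in replicate 2, a log2 ratio of Cox6b1 over Cox6b2 of -2.50 ± 0.47 (SD, n = 2). Counting protein-coding transcripts alone, the log2 ratio was -1.20 in replicate 1 and -2.56 in replicate 2, so the order held. Both genes lie on the minus strand of chromosome 7, Cox6b2 from 4751792 to 4753094 and Cox6b1 from 30616861 to 30626151 (mm10), and neither shares exons with another gene.

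Subunit 7a showed the same kind of order. Cox7a1, known from heart and skeletal muscle, was at 47.17 TPM in replicate 1 and 27.87 TPM in replicate 2. Cox7a2, the general or liver form, had 9.92 TPM in replicate 1 and 14.19 in replicate 2. The log2 ratio of Cox7a2 over Cox7a1 was -2.24 in replicate 1 and -0.97 in replicate 2, and -1.60 ± 0.90 on average (SD, n = 2). In counts, not corrected for length, Cox7a1 had 690 and Cox7a2 had 412 in replicate 1, whereas in replicate 2 Cox7a1 had 73 and Cox7a2 had 99. The order in replicate 2 therefore depends on the annotated lengths, 364 bases for Cox7a1 and 754 bases for Cox7a2. Cox7a1 lies on chromosome 7 from 30184144 to 30186078 on the plus strand, and Cox7a2 on chromosome 9 from 79755361 to 79759878 on the minus strand (mm10). The 5 muscle markers summed to 0.170 TPM in replicate 1 and 0.0600 TPM in replicate 2, with Ckm and Actn2 at 0 counts in both.

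**Figure D2:**
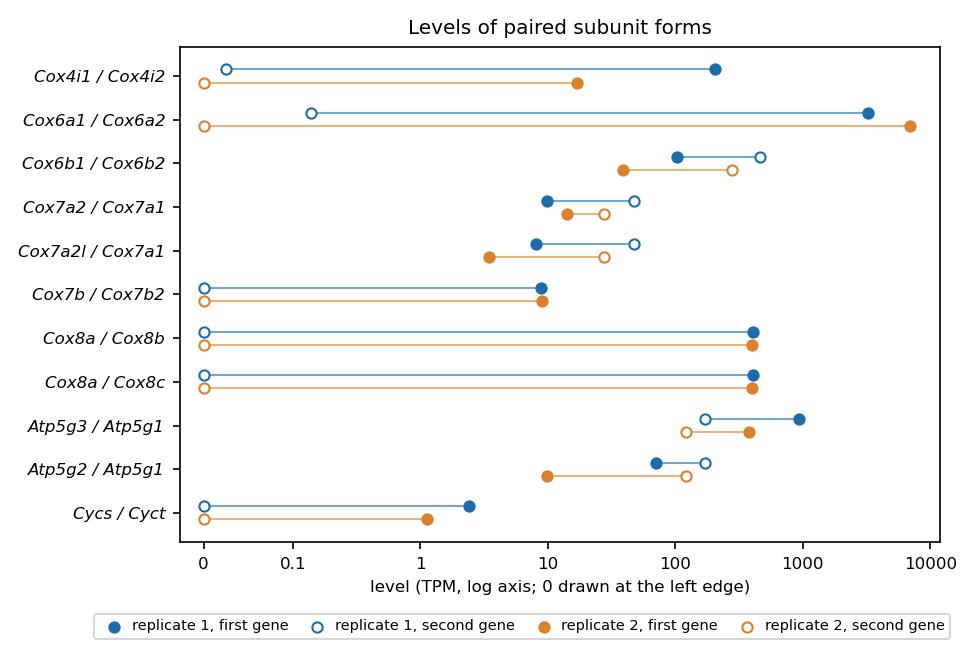
Levels in TPM on a log axis for the 11 pairs of subunit forms, with filled circles for the first-named gene and open circles for the second, in blue for replicate 1 and orange for replicate 2. The open circle lies right of the filled one in both libraries for Cox6b1 / Cox6b2, Cox7a2 / Cox7a1, Cox7a2l / Cox7a1 and Atp5g2 / Atp5g1.

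Complex V genes summed to 4553 TPM in replicate 1 and 3717 TPM in replicate 2, and 15 of 17 reached 1 TPM in both. The catalytic F1 head gave most of this, with 2869 TPM in replicate 1 and 2684 TPM in replicate 2 over its 5 genes. Atp5b, the beta subunit that carries the catalytic sites, had 1425.63 TPM in replicate 1 against 1269.12 TPM in replicate 2 (1347 ± 111, SD, n = 2). Atp5d, the delta subunit of the central stalk, was at 1024.6 TPM in replicate 1 and 1293.28 TPM in replicate 2. Atp5a1, the alpha subunit, was lower, with 404.79 TPM in replicate 1 and 115.54 TPM in replicate 2. The other 2 subunits of F1 lay far below these. Atp5c1, the gamma subunit that turns inside the head, had 11.43 TPM in replicate 1 and 3.94 in replicate 2. Atp5e, the epsilon subunit, was the lowest of the 15, with 2.20 TPM from 103 counts in replicate 1 and 1.90 TPM from 7 counts in replicate 2.

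The membrane ring of complex V is built from subunit c, which 3 genes encode as the same mature protein. Atp5g3 was the highest of these, with 934.26 TPM in replicate 1 and 378.53 TPM in replicate 2. Atp5g1 had 170.24 TPM in replicate 1 against 120.39 TPM in replicate 2, and Atp5g2 was at 70.96 TPM in replicate 1 and 9.95 TPM in replicate 2. The order of the 3 genes was the same in both libraries. Counts of Atp5g1 in replicate 1 and of Atp5g2 in both libraries were not whole, within a tolerance of 0.005. The same was so of Atp5h, Cox7c and Cycs in replicate 1 and of Cox5b and Cox7a2l in both libraries. How reads that fit several genes were shared out was not tested.

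Among the peripheral stalk genes of complex V, which hold the head still, Atp5f1 (subunit b) had 102.42 TPM in replicate 1 and 360.59 in replicate 2. Atp5h (subunit d) had 187.32 TPM, from 3628 counts, in replicate 1 and 0.92 TPM, from 3 counts, in replicate 2. Atp5j (F6) had 44.97 TPM in replicate 1 against 79.29 TPM in replicate 2, and Atp5o (the OSCP subunit) was at 38.47 TPM in replicate 1 and 14.22 TPM in replicate 2. Atp5h and Atp5o were thus higher in replicate 1, and Atp5f1 and Atp5j in replicate 2. Of Atp5h, protein-coding transcripts gave 10.66 TPM in replicate 1 and 0 in replicate 2, and most of its level in replicate 1 lay in Atp5h-207, a processed transcript of 420 bases. The 4 small membrane subunits Atp5j2, Atp5k, Atp5l and Atp5mpl all reached 1 TPM in both libraries and summed to 135 TPM in replicate 1 and 68.7 TPM in replicate 2. Atp5s, known as coupling factor B, stayed below 1 TPM, with 0.37 TPM in replicate 1 and 0.53 TPM in replicate 2.

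Levels of a gene sum over its transcripts, and for several complex V genes most of the sum came from transcripts with no coding annotation. Of 19 members with at least 10 TPM in both libraries and more than 1 transcript, 16 had the same leading transcript in both (84.2%), against 67.7% of 3060 such genes in all. The leading transcript was of a noncoding type in both libraries in 3 of the 19 (15.8%), against 24.5% of 3026 such protein-coding genes. These 3 were Atp5b, Atp5a1 and Atp5f1. Sdha and Atp5h were also led by a noncoding type in both libraries. They are not among the 19, because Sdha was at 9.91 TPM and Atp5h at 0.92 TPM in replicate 2. For Atp5b the leading transcript was Atp5b-207, a processed transcript of 343 bases with 93.93% of the gene's TPM in replicate 1 and 92.46% in replicate 2. The counts of Atp5b-207 were 17650 in replicate 1 and 2798 in replicate 2. The protein-coding Atp5b-201, of 1916 bases, had 85.63 TPM from 10415 counts in replicate 1 and 90.09 TPM from 1799 counts in replicate 2. Counted by its coding transcript, Atp5b therefore lay below Atp5d, with 1024.48 TPM from coding transcripts in replicate 1 and 1293.29 TPM in replicate 2.

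Atp5a1 was led by Atp5a1-204, a 774-base transcript annotated for nonsense-mediated decay, with 75.43% of the gene's TPM in replicate 1 and 80.67% in replicate 2. In counts, Atp5a1-204 had 13097 in replicate 1 and 671 in replicate 2. The coding Atp5a1-201, of 2471 bases, had 13362 in replicate 1 and 0 in replicate 2. The coding Atp5a1-202 had 2761 in replicate 1 and 176 in replicate 2. The lead of Atp5a1-204 in replicate 1 therefore depends on the annotated lengths. Its coding transcripts gave 99.45 TPM in replicate 1 and 6.19 TPM in replicate 2. Atp5f1 was led by Atp5f1-205, a retained-intron transcript of 2527 bases, with 64.8% in replicate 1 and 67.96% in replicate 2. Coding transcripts gave 20.27 TPM of Atp5f1 in replicate 1 and 2.77 TPM in replicate 2, so the higher total of Atp5f1 in replicate 2 was not in its coding transcript. Exons of 12 members overlap another gene, mostly on the opposite strand. Wdr77, which overlaps Atp5f1 on the opposite strand, had 12.74 TPM in replicate 1 and 38.27 in replicate 2. The use of strand in counting is not stated in the sources, and the part of Wdr77 in the Atp5f1 level was not tested.

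Among the 19 members with at least 10 TPM in both libraries and more than 1 transcript, the leading transcript differed for Atp5g3, Cox5b and Cox6b2. Outside these 19, it also differed between the libraries for Cox6c, Cox7b and Cycs. Atp5g3 was led in replicate 1 by the processed transcript Atp5g3-205 (60.49%) and in replicate 2 by the coding Atp5g3-201 (49.14%). Cox6b2 was led in replicate 1 by the retained-intron transcript Cox6b2-205 (48.81%) and in replicate 2 by the coding Cox6b2-203 (64.81%). Cox5b was led by a protein-coding transcript both times, Cox5b-204 of 865 bases (71.6%) in replicate 1 and Cox5b-206 of 344 bases (82.95%) in replicate 2. Scaled counts of Cox5b, which take no account of length, were 1.85-fold higher in replicate 1. Over all members, coding transcripts summed to 11314 TPM in replicate 1 and 13610 TPM in replicate 2. Within complex V they summed to 2064 TPM in replicate 1 and 1893 TPM in replicate 2.

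**Figure D3:**
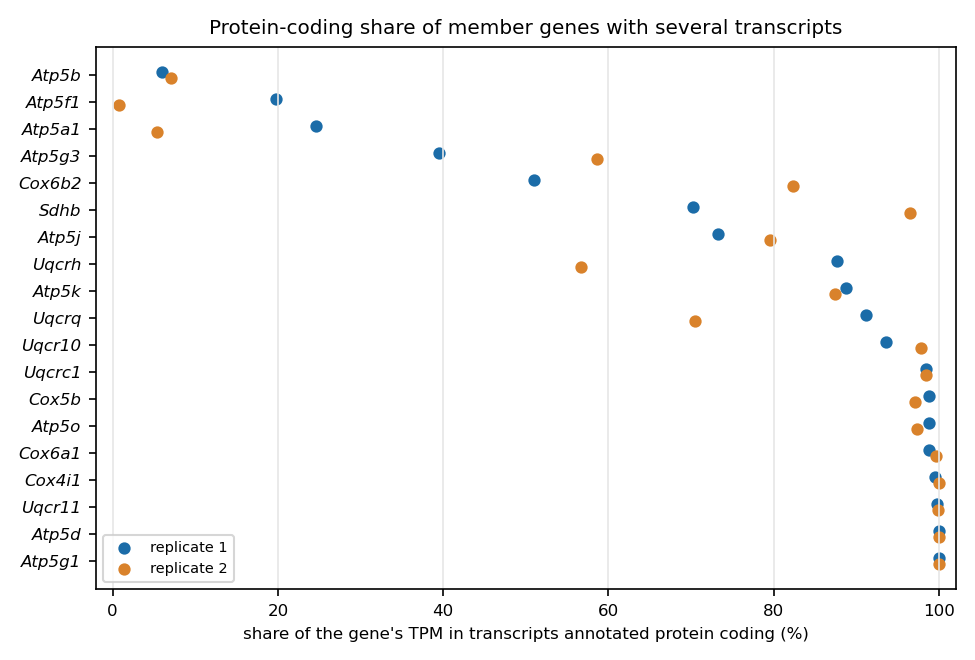
Share of each gene's TPM that lies in transcripts annotated as protein coding, in percent, for the 19 members with several transcripts and at least 10 TPM in both libraries, with replicate 1 in blue and replicate 2 in orange. Atp5b, Atp5f1 and Atp5a1 lie below 25% in both libraries, and 8 genes from Uqcrc1 down lie above 95% in both.

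To set the libraries side by side, counts were scaled by TMM, a trimmed mean over all genes, and expressed as the log2 of replicate 1 over replicate 2, for genes with a mean of at least 1 CPM. Of the 42 members compared, 16 were at least 2-fold higher in replicate 1 (38.1%), against 30.2% of 8895 genes. A further 3 were at least 2-fold higher in replicate 2 (7.14%), against 17.7% of all genes. The median log2 ratio was 0.52 for the members and 0.21 for all genes compared. These values describe 2 libraries of 1 group and carry no test.

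By the log2 ratio the members furthest apart towards replicate 1 were Atp5h, Uqcrb and Sdhc, whose counts are given above. The place of Uqcrb rests on the 0.5 added to its 0 counts. For Atp5h the ratio of scaled counts was 180, with an exact 95% interval for counting error of 61.6 to 875. Uqcrb was at least 17.9-fold higher in replicate 1, taking 3 counts as the limit of its 0 in replicate 2, a bound below the ratios of Sdhc and Cox7c. Sdhc was 24.3-fold and Cox7c 22.7-fold higher in replicate 1, followed by Cycs at 11.3-fold and Cox4i1 at 10.7-fold. Exons of Cox4i1 overlap Emc8 on the opposite strand, which had 67.97 TPM in replicate 1 against 96.21 TPM in replicate 2. The part of Emc8 in the Cox4i1 level was not tested.

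The 3 members at least 2-fold higher in replicate 2 were Uqcr10 (log2 ratio -2.94), Atp5f1 (-1.83) and Cox6a1 (-1.28). Atp5j, at -1.0, and Cox6c, at -0.99, lay just short of the 2-fold line, and Cox7a2l, at 1.04, just past it on the other side. By complex, the median log2 ratio was 0.84 for complex II, 0.39 for complex III, 0.49 for complex IV and 0.81 for complex V. With a minimum mean of 10 CPM in place of 1 CPM, the median of complex III turned to -0.24, that of complex V was 0.16 and that of complex IV was 0.71. At the minimum of 1 CPM, genes lay on both sides of 0 in each of these complexes except complex II, where all 4 genes were above 0. Within complex III, the small subunits Uqcr10 and Uqcr11 lay on opposite sides, at -2.94 and 2.03.

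**Figure D4:**
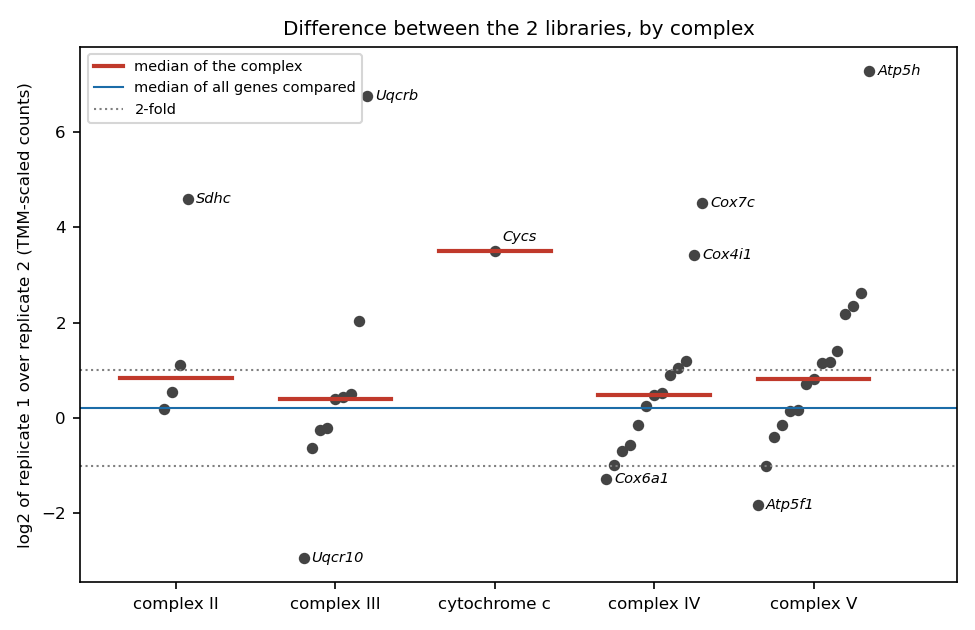
Log2 of replicate 1 over replicate 2, TMM-scaled counts with 0.5 added, for the 42 members compared (points), by complex, with the median of each complex in red, the median of all 8895 genes (0.21) in blue and dotted lines at 2-fold. Most points lie between the dotted lines or above them, and Uqcrb, drawn at 6.75, had 0 counts in replicate 2, so that its height depends on the 0.5 added.

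Other nuclear genes for mitochondrial and ribosomal proteins also leaned towards replicate 1. The median log2 ratio was 0.52 for the 42 members, 1.47 for 44 complex I genes, 0.81 for 70 mitochondrial ribosomal protein genes and 1.60 for 80 cytosolic ribosomal protein genes. Over all genes compared, this median was 0.21. The share at least 2-fold higher in replicate 1 was 30.2% of all genes compared. It was 38.1% for the members and 38.6% for the mitochondrial ribosome, and larger for complex I (59.1%) and the cytosolic ribosome (66.2%). The share at least 2-fold higher in replicate 2 was smaller in each of these sets than among all genes compared (17.7%). In level, the median over all listed genes was 40.7 TPM for the 50 members, 57.2 TPM for 46 complex I genes and 25.2 TPM for 77 mitochondrial ribosomal protein genes.

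Base composition moved with level among the members. Over the 42 members compared, the Spearman coefficient of GC content of the longest coding transcript with TPM was 0.43 in replicate 1 and 0.49 in replicate 2, and over 8442 genes it was 0.30 in replicate 1 and 0.37 in replicate 2. The 21 members above 50.3% GC had a median of 155 TPM in replicate 1 and 116 TPM in replicate 2. The 21 at or below it had a median of 41.6 TPM in replicate 1 and 9.0 TPM in replicate 2. Over all genes compared, the medians were 23.6 TPM in replicate 1 and 19.7 TPM in replicate 2 above 50.3% GC, and 8.08 TPM in replicate 1 and 4.64 TPM in replicate 2 at or below it. Among the members furthest apart, Cox7c had the lowest GC content of those compared, 38.4%, and Uqcrb had 42.2%, whereas Cox4i1 had 58.0%. With the log2 ratio the coefficient was -0.18 over the members and -0.24 over all genes. The part of base composition in these levels was not tested.

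Genes listed for the assembly, maturation or inhibition of these complexes had a lower median level than the subunits. Of 37 such genes, 30 reached 1 TPM in both libraries, whereas 17.2% of all genes and 33.1% of protein-coding genes did. The median over all 37 was 11.2 TPM, and that over the 50 subunit genes was 40.7 TPM. By complex, 1 TPM was reached by 2 of 4 for complex II, 4 of 6 for complex III, 19 of 22 for complex IV and 4 of 4 for complex V. Hccs, the cytochrome c heme lyase, also reached it. By the mean of both libraries, the 3 highest were Atpif1, the inhibitor of the reverse reaction of ATP synthase, Cox17, a copper chaperone of complex IV, and Uqcc2, which helps to make cytochrome b. Atpif1 was at 549.18 TPM in replicate 1 and 93.92 TPM in replicate 2, Cox17 had 372.47 TPM in replicate 1 and 1.27 in replicate 2, and Uqcc2 had 152.02 TPM in replicate 1 against 33.34 TPM in replicate 2. In replicate 2 alone, the 3 highest were Atpif1, Tmem70 at 43.95 TPM and Cox18 at 35.12 TPM. The complex II factor Sdhaf3 and the complex III factor Lyrm7 were below 1 TPM in both. Of the 34 compared between libraries, 16 were at least 2-fold higher in replicate 1 (47.1%, against 30.2% of all genes compared) and 1 in replicate 2 (2.94%, against 17.7% of all genes compared).

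Of 9 transcription factors and coactivators known to act on respiratory genes, 8 reached 1 TPM in both libraries. Yy1 was the highest, with 72.37 TPM in replicate 1 and 180.88 TPM in replicate 2, followed by Esrra, with 25.42 TPM in replicate 1 and 45.89 TPM in replicate 2. Nrf1 was at 11.42 TPM in replicate 1 and 8.24 TPM in replicate 2, and the GABP subunit gene Gabpa had 3.25 TPM in replicate 1 and 1.45 in replicate 2. Ppargc1a, a coactivator known from muscle and brown fat, had 0 counts in both, while its relatives Ppargc1b and Pprc1 reached 1 TPM in both.

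The partner subunits encoded in mitochondrial DNA did not repeat between the libraries. In complex III, mt-Cytb (cytochrome b) had 661.74 TPM in replicate 1 against 182.4 TPM in replicate 2. In complex IV, mt-Co1 was at 316.64 TPM in replicate 1 and 32.28 TPM in replicate 2, mt-Co2 had 530 counts in replicate 1 and 0 in replicate 2, and mt-Co3 had 11 counts in replicate 1 and 189 in replicate 2. In complex V, mt-Atp6 had 8245 counts in replicate 1 and 0 in replicate 2, and mt-Atp8 had 665.77 TPM in replicate 1 and 1455.94 in replicate 2. The genes mt-Atp8 and mt-Atp6 overlap on the mitochondrial genome, and how reads were divided between them was not tested.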

How the data were processed

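Polyadenylated RNA of 2 libraries was measured. The assembly was mm10, per the labels, and text deposited beside the tables names GENCODE M4. Not given in the sources used here were the tool, its version, read filters and use of strand. The authors deposited estimated counts, many of them fractional, in a maximum likelihood and a posterior mean version, with TPM and FPKM values corrected for effective length. For transcripts, the deposited percent is the part of the gene's TPM. Entries that are not genes (26345 of 69691) held 3 and 0 counts and were left out.

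Symbols, positions, transcript types and GC content came from GENCODE M21 by identifier, which named 42462 genes. Levels were compared per length, as TPM, and counts only between libraries. Rounded counts were TMM-scaled with edgeR 4.0.16 (factors 1.15 for replicate 1 and 0.871 for replicate 2), with a prior count of 0.5 and a mean CPM of at least 1. The step was checked on simulated data with counting error only and equal numbers of genes changed in each direction. Unequal numbers in the 2 directions, as in these libraries, were not simulated. The libraries form 1 group, so no test was made. The rule for members uses symbols alone, but it, the lists and the marker genes were chosen with earlier results of these data known. Every member may be named; values of both libraries are given by a rule: all Sdh genes, the 2 highest and the lowest measured member of each other complex, all genes of the pairs, the 3 furthest apart in each direction, and those with differing or noncoding leading transcripts. Other members appear for their role. Of the assembly and pathway genes, the 3 highest and those below 1 TPM in both libraries are named by rule; regulators and mitochondrial partners were named after their values were seen. The alternatives were other minimum levels, posterior means, FPKM, TMM-scaled CPM, other pseudocounts, scalings with DESeq2 1.42.0, total counts or TPM, other filters and folds, and each library alone. TPM of protein-coding transcripts alone was added after the data were seen. Software was R 4.3.3, Python 3.11.15, pandas 2.3.3, numpy 2.4.6, matplotlib 3.10.9 and scipy 1.17.1.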

Additional observations from a re-analysis of the deposited data

How the results depend on the processing

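No paired analysis was possible because the labels give 1 group. Of 50 alternative values of the main results, 39 stayed within the spread between replicates or within 1.5 times the main count, and 11 moved. For sums and pair ratios the main value is the mean of 2 libraries, and each library alone always lies within their SD. Those alternatives could not move, yet they count as unchanged here and among the alternatives for single complexes or pairs. The median of 62.1 TPM was 131 with a minimum of 5 TPM and 27.8 in TMM-scaled CPM, which is not per length. The summed level of 14929 TPM was 17806 without adult globin and mitochondrial genes and 12462 from protein-coding transcripts alone. The 3 members higher in replicate 2 became 5 with DESeq2 size factors, 7 at 1.5-fold and 1 at 4-fold, and the 16 higher in replicate 1 became 10 at 4-fold. The median log2 ratio of 0.52 was 0.92 with total counts and 0.75 with TPM ratios, while the median of all genes, 0.21, was 0.61 with total counts and 0.30 with TPM. The 16 members with the same leading transcript were 10 of 13 with a minimum of 50 TPM. The median log2 ratio of complex III, 0.39, became -0.24 with a mean CPM of at least 10, which leaves out Uqcrb, Uqcrc2 and Uqcrh; under the same minimum the median of complex V was 0.16 in place of 0.81. Of 158 alternatives for single complexes or pairs, 117 stayed the same, 40 moved and that one turned its sign.

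With 1 library alone, 41 to 43 members reached 1 TPM, the median was 32.6 to 75.3 TPM and the sum 14206 to 15652 TPM. A comparison between libraries gives no value with 1 left out. Depth limits replicate 2 most: Of the members that reached 1 TPM in both libraries, Cycs and Atp5e had fewer than 10 counts there.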
